A study of Canis lupus familiaris with 26 samples.

Results

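Corpora lutea taken 20 days after ovulation from dogs given firocoxib were compared with corpora lutea from control dogs of the same day. The 6 day 20 samples, 3 treated and 3 control, were chosen by their labelled day out of 26 samples in all, and every gene in their count files entered the comparison. Both groups were bitches of mixed breeds and ages with a spontaneous oestrus, and no transgene, strain or line is involved. Treated bitches received firocoxib by mouth at 10 mg/kg each day from the day of ovulation, and ovaries and uterus were removed on the last treatment day. Control bitches received a placebo according to the sample labels, whereas the series description calls them untreated. The remaining samples were collected on days 5, 10 and 30 under the same scheme. Each sample is the trimmed luteal tissue of 1 bitch, so RNA of steroidogenic, vascular, immune and stromal cells and of any adhering ovarian tissue was measured together. Of the samples the study set aside as outliers, none came from day 20.

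Firocoxib is a selective inhibitor of cyclooxygenase 2, the enzyme encoded by PTGS2 that makes the precursor of the prostaglandins. In the non-pregnant dog no uterine signal ends the life of the corpus luteum, and locally made prostaglandin E2 is known to favour progesterone output in its early phase. The mature gland then passes from relative independence to support by pituitary hormones, chiefly prolactin. The drug acts on the protein, so the PTGS2 transcript is no check of the treatment.

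Total counts lay between 15965656 reads, in treated 3, and 20156161 reads, in control 2. The correlations between samples are given as a description, since 3 against 3 samples cannot reach a p under 0.05. On the log2 CPM scale (CPM, reads for every 1e+06 reads of the library, after TMM scaling), the correlation across genes averaged 0.958 between pairs of controls and 0.824 between pairs of treated samples, where genes are not independent replicates. Treated 2 and treated 3 were least alike, with r = 0.709, whereas treated 3 and treated 4 reached 0.920. The difference between the group averages was 0.134, and an exact permutation test of the treatment labels over the 6 samples, two-sided, gave p = 0.4 where 0.1 is the smallest value 3 against 3 samples allow. Without treated 2 the difference was 0.0395, and without treated 4 it was 0.248. Treated 3 and treated 4 correlated with the 3 controls at 0.851 and 0.927 on average, above their averages of 0.815 and 0.881 with the other treated samples. The SD of log2 CPM was larger in the treated group for 77.3% of genes, with medians of 0.758 in treated and 0.371 in control samples.

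Treated 2 stood furthest apart. In it, 1599 genes lay at least 1 log2 unit above both other treated samples and 4062 lay as far below both. The same counts were 1007 and 1260 for treated 3, and 302 and 173 for treated 4. Among controls, control 3 had the largest number above, at 938, and control 1 the largest number below, at 451. On principal components of log2 CPM, treated 2 lay at 94.8 on the first component and treated 3 at -85.8 on the second. No pair of files agreed within counting noise, as a library deposited in duplicate would.

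**Figure D1:**
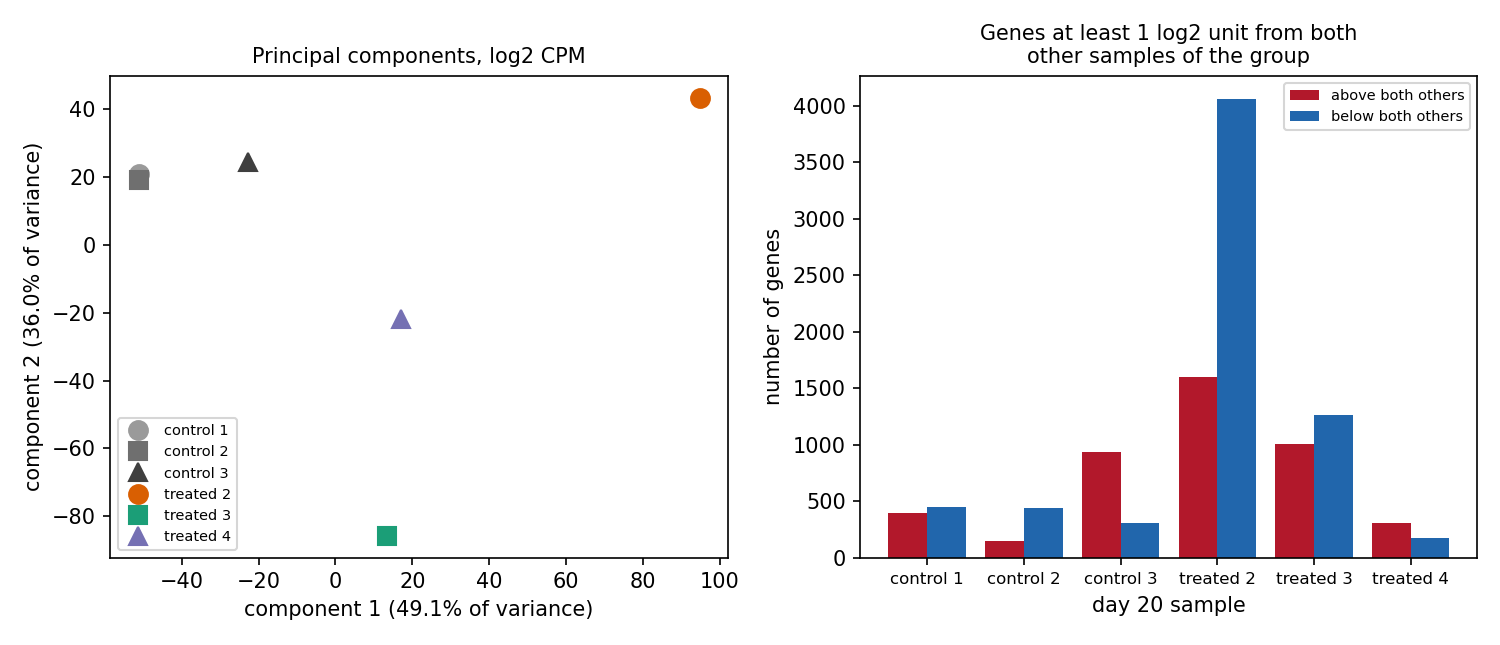
Left, scores of the 6 day 20 samples on the first and second principal components of log2 CPM, which carry 49.1% and 36.0% of the variance. Right, number of genes that lie at least 1 log2 unit above (red) or below (blue) both other samples of the same group. The controls lie together, and treated 2 and treated 3 each lie far out on another component.

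After genes averaging under 10 reads in both groups were left out, 13726 remained, of which 14 passed P under 0.01 with a false discovery rate (FDR) under 0.1 in edgeR's quasi-likelihood test, which is 0.102% of genes tested. All 14 rose in treated samples, and in all 14 the groups did not overlap. A gene averaging under 10 reads in a group entered the test through the other group alone, so the filter fixed its direction. This holds for such list members below, and for all of the 14 except GDF9, PNLDC1, ALDH1A2 and ENSCAFG00000017264. No gene fell past these thresholds in edgeR, although 732 genes, or 5.33%, were lower and 1606, or 11.7%, higher at an unadjusted P under 0.05, together 17% of genes tested. DESeq2, with the same 2 thresholds, called 1479 genes or 10.8%, of which 981 (7.15% of genes tested) were higher and 498 (3.63%) lower. The groups did not overlap for 4141 genes, 30.2% of those tested, of which 2315 (16.9%) were higher and 1826 (13.3%) lower. Across genes tested, the median log2 fold change was 0.11.

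Many genes stood close to the threshold. The largest FDR among the 14 was 0.0960 and the next gene stood at 0.1003, and 104 genes, 98 higher and 6 lower, had an FDR under 0.11. Without treated 2, edgeR called 1016 genes, 778 higher and 238 lower, or 7.4% of 13722, and these held all 14. Without treated 3 only 1 gene was called. Without treated 4, or without any 1 control, the count was 0. With all 26 samples in 1 fit, so that other days shared the estimate of spread, edgeR called 920 genes higher and 639 lower at day 20, or 6.49% and 4.51% of 14171 and 11% together, again with all 14 among them.

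Of the 12 genes with a symbol that rose, 9 were on the list of oocyte markers. In wider sets of calls such genes were few, with 21 among the 746 genes with a symbol that DESeq2 called higher. They were ZP3 and ZP4, which encode proteins of the zona pellucida around the egg, GDF9 and BMP15, the growth factors an oocyte secretes, NLRP5, NLRP9 and PADI6, maternal proteins stored for the embryo, KPNA7, an importin of the early embryo, and PNLDC1, a nuclease that trims germline small RNAs.

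ZP3 had 1 read in the 3 controls together and 2235 reads in the treated samples. Its level was 33.6, 45.5 and 38.8 CPM in treated 2, 3 and 4, and 0.0608, 0 and 0 CPM in controls 1, 2 and 3. The treated samples were close to one another and far above every control, at 2016-fold by reads (95% counting interval 361 to 79660). ZP3 had the smallest FDR of all genes, 0.00997 in edgeR's quasi-likelihood test, and was the gene still called at an FDR under 0.05.

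GDF9 was measurable in every sample, at 3.29, 2.99 and 3.44 CPM in controls and at 29.1, 49.9 and 36.3 CPM in treated 2, 3 and 4. Its log2 fold change was 3.57 with a standard error (SE) of 0.41, and the FDR in the edgeR quasi-likelihood test was 0.0689. BMP15 reached 41.3, 90.2 and 73.8 CPM in treated 2, 3 and 4, against 0.487 CPM in control 1 and 0 in controls 2 and 3. Within the treated group the order of BMP15 was that of GDF9, with treated 2 lowest and treated 3 highest, and neither gene overlapped between groups. PNLDC1 stood at 16.5, 33.4 and 28.6 CPM in treated samples and at 0.791, 0.366 and 1.26 CPM in controls, a log2 fold change of 5.00 ± 0.61 (SE).

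For 7 oocyte genes no control had a read, and their fold change can only be bounded, here against 3 reads over the 3 controls together. On this footing NLRP5 was at least 169-fold higher, with 4.09, 13.6 and 11.8 CPM in treated 2, 3 and 4. NLRP9 was at least 164-fold higher and ZP4 at least 90.5-fold higher, and all 3 genes were lowest in treated 2. PADI6, with 3 control reads, was 215-fold higher with a 95% counting interval of 73.3 to 1045. Counting intervals and bounds cover counting error only.

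**Figure D2:**
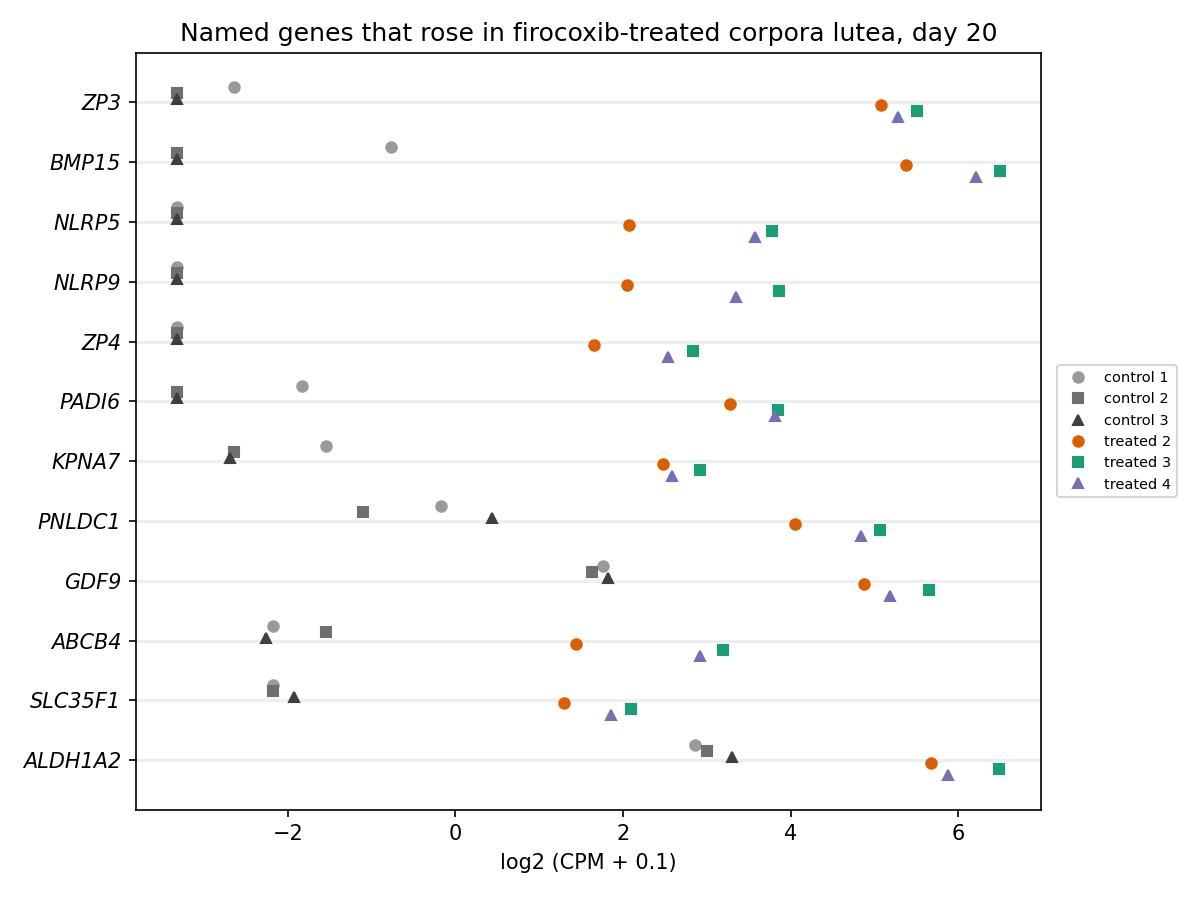
The 12 named genes that rose, one row each, with log2 (CPM + 0.1) of every day 20 sample on the horizontal axis. Grey symbols are controls 1 to 3 and coloured symbols treated 2, 3 and 4. In each row all treated samples lie to the right of all controls, and treated 2 is the lowest treated sample.

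Over the whole list, 23 of 39 fixed oocyte markers could be matched and tested. Of these, 18 averaged under 10 reads in controls and entered the test through the treated group alone, so their direction was fixed by the filter and no count over them is support. The 5 others were GDF9, PNLDC1 and ZP2, a zona pellucida protein, which DESeq2 called higher, and KIT and MAEL. KIT, a receptor also carried by mast cells and the list member with most reads, was at 80.3, 64.5 and 54.4 CPM in controls and 29.0, 19.5 and 54.5 CPM in treated samples. Neither KIT nor MAEL, a germline protein, was called. Symbols came from gene lists of the study, which hold genes it had itself called in some comparison. The direction of any list is therefore not independent evidence, and the fair background is the 4294 tested genes with a symbol, of which DESeq2 called 25.3%, with 17.4% higher and 7.96% lower. The groups did not overlap for 44.9% of these genes, higher in 24.6% and lower in 20.3%. Counts on all lists below stand beside these shares. DESeq2 called 25%, 23.1%, 18.5% and 15.4% of the interferon, heat shock, blood vessel and cell death lists, none above the 25.3%.

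Levels of these genes also varied among treated and control samples of the other days. The summed level of the 22 oocyte genes other than KIT was 205, 393 and 313 CPM in treated 2, 3 and 4 at day 20, against 8.83, 13.9 and 11.6 CPM in their controls, scaled over all 26 samples. Elsewhere it reached 160 CPM in a day 5 control, 136 CPM in a day 5 treated sample, and 167 and 166 CPM in a pair of day 10 controls. The day 30 treated samples stood at 234, 8.05 and 128 CPM, with day 30 controls from 8.47 to 32.9 CPM. Among the 23 samples other than day 20 treated ones the median was 23.9 CPM, and 1 lay above the lowest day 20 treated sample. All 3 day 20 controls lay below that median. Of the genes summed, 18 entered through the day 20 treated samples alone. The filter thus favoured a high sum in those samples and a low one in their controls, and these ranks are no support. In whole tissue, more cells of a type and more RNA per cell cannot be told apart, and the part of egg-bearing tissue next to the corpus luteum in these values was not tested.

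The remaining genes that rose were not on the oocyte list. ALDH1A2, which makes retinoic acid, stood at 7.18, 7.94 and 9.79 CPM in controls and at 50.9, 89.3 and 58.7 CPM in treated 2, 3 and 4. Its log2 fold change was 3.00 ± 0.41 (SE), and its edgeR FDR was 0.0960. ABCB4, a phospholipid transporter, rose by 5.27 on the log2 scale from 0.244 CPM or less in every control, and SLC35F1, a solute carrier of unsettled substrate, by 4.55. Both averaged under 10 reads in controls, so the filter fixed their direction. The 2 genes without a symbol were ENSCAFG00000013249, which had 0.0608, 0 and 0 CPM in controls and 8.35, 9.72 and 9.79 CPM in treated samples, and ENSCAFG00000017264, at 0.852, 1.34 and 1.69 CPM in controls and 17.8, 27.9 and 23.8 CPM in treated samples. Their log2 fold changes were 8.45 and 4.15, and the direction of ENSCAFG00000013249 was fixed in the same way.

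Beyond the 14, genes with a symbol, a mean of at least 5 CPM in the higher group and no overlap between groups were ranked by P. The first 10 among those higher had FDRs from 0.1003 to 0.1022 in edgeR's quasi-likelihood test, and DESeq2 called all 10, chosen as they were by P on the same samples. THBS4, a matrix glycoprotein, stood at 93.9, 61.2 and 159 CPM in controls and at 1239, 1784 and 1062 CPM in treated samples, a log2 fold change of 3.70 ± 0.55 (SE). ROR2, a receptor for Wnt ligands, had a log2 fold change of 3.05, and GLI1, a transcription factor and target of Hedgehog signals, one of 2.75. FEZ1, a transport adaptor first known from neurons, was the tightest, at 58.6, 55.8 and 54.7 CPM in treated samples against 8.76, 10.7 and 13.5 CPM in controls. The ephrin EFNB3 had a log2 fold change of 3.51, with treated 3 the highest at 19.2 CPM. The other 5 were HENMT1, which methylates germline small RNAs, NLRP13, of the family of NLRP5, the calpain CAPN13, CSRNP1 and the small GTPase RND1, with log2 fold changes from 3.28 to 6.54. HENMT1, NLRP13 and CAPN13 averaged under 10 reads in controls, so the filter fixed their direction. Among genes under the level minimum, the oocyte genes ZAR1 and BTG4 also stood at an edgeR FDR of 0.1003.

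Among genes at lower levels in treated samples, none passed edgeR's thresholds. The first 10 in the same ranking had FDRs from 0.102 to 0.135 in edgeR's quasi-likelihood test and log2 fold changes from -4.09 to -2.24. DESeq2 called all 10 lower, which describes genes chosen by their P on the same samples and adds no support.

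APOB, the main protein of low density lipoprotein, was close to even in controls. It stood at 119, 105 and 109 CPM in controls 1, 2 and 3 and at 3.27, 2.04 and 14.2 CPM in treated 2, 3 and 4. Treated 4 kept the most APOB and still lay far below the lowest control, and the log2 fold change was -4.09 ± 0.77 (SE). ENPP5, a membrane phosphodiesterase of the nucleotide pyrophosphatase family, was at 502, 945 and 593 CPM in controls and at 31.7, 9.67 and 90.2 CPM in treated samples. Here too treated 4 was nearest to controls, and treated 3 was lowest.

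STEAP2, a metalloreductase, had 32.6, 45.8 and 20.8 CPM in controls and 2.13, 4.12 and 6.69 CPM in treated samples. KIF5C, a motor protein of microtubule transport, had 41.4, 38.4 and 30.1 CPM in controls and 4.64, 3.00 and 9.63 CPM in treated samples. EDIL3, a matrix ligand of integrins, stood at 92.2, 94.3 and 118 CPM in controls and at 8.46, 22.6 and 24.2 CPM in treated samples. In all 3 genes treated 4 was the highest treated sample, and it lay below the lowest control. NPR3, which clears natriuretic peptides, had a log2 fold change of -3.01, with control 1 at 104 CPM and the other controls at 27.8 and 34.2 CPM. The rest were RTKN2 at -3.20, SLCO6A1, an organic anion transporter, at -3.12, EML6, a microtubule-associated protein, at -3.10, and SLC35G1, a solute carrier, at -2.24.

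**Figure D3:**
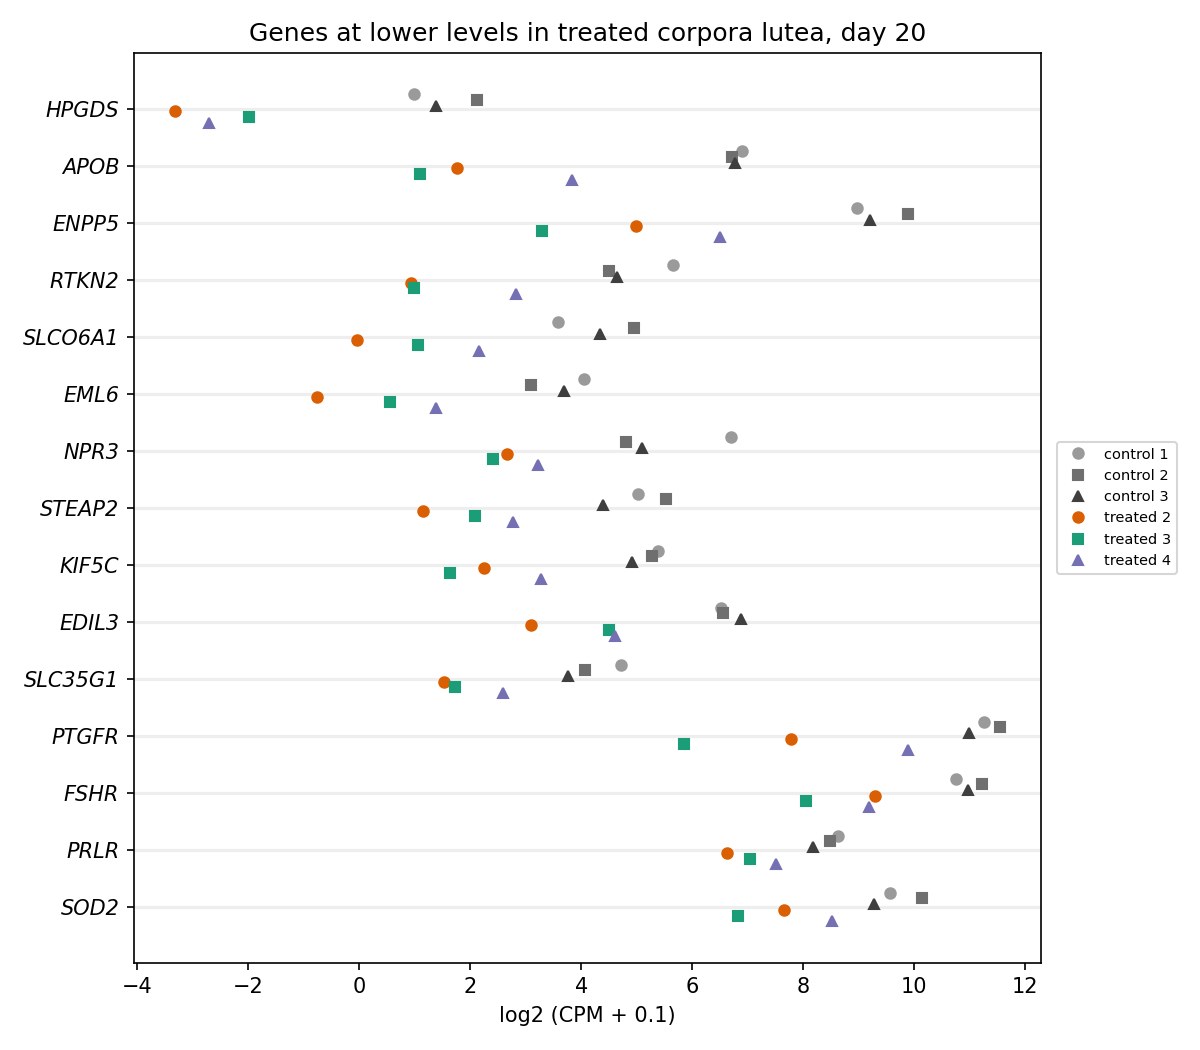
Genes at lower levels in treated corpora lutea, with log2 (CPM + 0.1) of each day 20 sample on the horizontal axis and symbols as in the plot of genes that rose. In every row the treated samples lie left of the controls, and treated 4 is the treated sample nearest to them except for HPGDS and FSHR.

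Within prostaglandin synthesis and signalling, 15 of 28 fixed genes could be tested. DESeq2 called 5 higher and 2 lower, edgeR none, and the median log2 fold change was 0.63, with 0.29 without control 1 and 1.21 without control 2. The transcript of the drug's target, PTGS2, overlapped between groups, at 3.04, 54.4 and 18.5 CPM in controls and 3.11, 32.3 and 74.6 CPM in treated samples. Its log2 fold change of 0.54 had a standard error of 1.14.

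The enzymes downstream of cyclooxygenase differed from one another. PTGDS, a prostaglandin D2 synthase, stood at 3.29, 9.22 and 34.2 CPM in controls and at 212, 150 and 54.3 CPM in treated 2, 3 and 4. HPGDS, the haematopoietic synthase of the same product, went the other way, from 1.89, 4.27 and 2.52 CPM in controls to 0, 0.153 and 0.0535 CPM in treated samples. DESeq2 called both, at FDRs of 0.0049 and 2.1e-05, while in edgeR's quasi-likelihood test they had FDRs of 0.185 and 0.102. HPGDS averaged under 10 reads in treated samples, so the filter fixed its direction and its call is no support. TBXAS1, thromboxane synthase, was at 11.96, 44.5 and 9.09 CPM in treated samples and at 6.57, 2.93 and 5.74 CPM in controls, and was called higher by DESeq2, with treated 3 far above the others. PTGIS, prostacyclin synthase, had a log2 fold change of 0.63 and was not called.

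PTGES, the prostaglandin E2 synthase, was at 56.4 CPM in treated 2, 3.36 CPM in treated 3 and 24.5 CPM in treated 4, with controls at 13.8, 25.1 and 21.7 CPM. The prostaglandin transporter SLCO2A1 had the same pattern, with 44.5, 2.80 and 18.8 CPM in treated 2, 3 and 4. AKR1B1, an aldose reductase with prostaglandin F synthase activity, was at 1613 and 1677 CPM in treated 2 and 4 but at 108 CPM in treated 3, below all controls at 1101 to 1565 CPM. For these 3 genes treated 3 was far below every control, and no group difference was called. HPGD, which inactivates prostaglandins, had a log2 fold change of -1.65 and overlapped between groups.

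Among receptors, PTGFR, which binds prostaglandin F2 alpha, was lower in every treated sample. It stood at 2462, 2991 and 2026 CPM in controls and at 221, 57.6 and 947 CPM in treated 2, 3 and 4. Its log2 fold change was -2.61 ± 0.92 (SE), and its FDR was 0.229 by edgeR and 0.024 by DESeq2. PTGER4, a prostaglandin E2 receptor, had 4.31, 37.1 and 20.2 CPM in treated samples and 2.98, 4.33 and 5.74 CPM in controls, so treated 2 lay among the controls, and DESeq2 called it higher. PPARG, a nuclear receptor that binds prostaglandin J2 derivatives, showed the same split and was also called higher by DESeq2, with 9.44, 69.7 and 29.3 CPM against 11.1, 8.91 and 9.84 CPM. PTGFRN, a partner of the F2 alpha receptor, was called by DESeq2 at 212, 214 and 162 CPM against 67.7, 98.6 and 107 CPM. The receptors PTGER2 and PTGIR, with log2 fold changes of 1.18 and 0.70, stood at 3.15 CPM or less in every sample and were not called.

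Receptors and enzymes of the steroidogenic cell went both ways. Of 20 tested genes of steroid hormone synthesis and its control, DESeq2 called 5 lower and 3 higher, and the median log2 fold change was -0.57. FSHR, the receptor of follicle stimulating hormone, was at 1734, 2406 and 2010 CPM in controls and at 632, 266 and 583 CPM in treated samples. Its log2 fold change was -2.05 ± 0.50 (SE), and the highest treated sample lay far below the lowest control. PRLR, the receptor of prolactin, stood at 398, 359 and 288 CPM in controls and at 98.6, 132 and 182 CPM in treated samples, a log2 fold change of -1.34. LHCGR, the receptor of luteinising hormone, overlapped between groups and had a log2 fold change of 0.04 ± 0.77 (SE). CYP19A1, aromatase, had 342, 121 and 1119 CPM in treated samples against 1778, 2102 and 828 CPM in controls and was not called.

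The 3 called higher on this list act in the follicle and its development. HSD17B1, which activates oestrone, had 3.49, 3.36 and 2.30 CPM in treated samples and at most 0.328 CPM in controls. It averaged under 10 reads in controls, so the filter fixed its direction and its call is no support. INHBB, a subunit of inhibin and activin, had a log2 fold change of 2.47, and GATA4, a gonadal transcription factor, one of 1.55. SULT1E1, which inactivates oestrogens, and HSD17B7, which acts on oestrone and in sterol synthesis, had log2 fold changes of 1.86 and -0.53 and were not called.

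All 17 tested genes of cholesterol synthesis and uptake had a negative log2 fold change, with a median of -0.59, yet DESeq2 called 1, edgeR none, and the groups did not overlap for 2. The list averaged 0.73, 3.25 and 0.27 log2 units below the control mean in treated 2, 3 and 4. CYP51A1, the sterol demethylase that DESeq2 called, had 125.3, 37.4 and 282 CPM in treated samples and 253, 876 and 586 CPM in controls. SC5D, a late enzyme of the pathway, was below every control, at 25.9, 23.3 and 131 CPM against 147 to 282 CPM. Control 1 lay 0.54 below the control mean and thus below treated 4. The list median was -0.14 without treated 3 and -1.08 without treated 2.

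Immediate-early genes, which cells switch on within minutes of a stimulus, were higher almost throughout. Of 30 tested, DESeq2 called 26 higher and none lower, the groups did not overlap for 28, and the median log2 fold change was 2.76. With all 6 samples edgeR called 0 of the 30, with 29 higher at an unadjusted P under 0.05. At that P 957 of 4294 genes with a symbol were higher. Without treated 2, a count added after the data were seen, edgeR called 27 higher, beside 17.7% of genes with a symbol in both directions, whereas leaving out any other sample gave 0 or 1 call over all genes. EGR1, a zinc finger factor and the member with most reads, stood at 50.3, 478 and 274 CPM in controls and at 1015, 3289 and 2604 CPM in treated samples. NR4A1, an orphan nuclear receptor, was at 3.29, 12.4 and 18.9 CPM in controls and at 121, 281 and 230 CPM in treated samples. JUNB, an AP-1 subunit, was even among treated samples, at 53.4, 63.8 and 53.3 CPM, against 1.22, 3.54 and 8.20 CPM in controls. For each of these genes control 1 was lowest and treated 3 highest. EGR2 and CSRNP1, both transcription factors, had log2 fold changes of 5.57 and 3.28.

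Genes of NF-kB signalling and acute inflammation went both ways. DESeq2 called 8 of 30 higher and 3 lower, with a median log2 fold change of 0.92. ICAM1, an adhesion molecule for leukocytes, had 8.70, 18.7 and 21.0 CPM in controls and 62.5, 357 and 379 CPM in treated 2, 3 and 4. NFKBIA, the inhibitor of NF-kB and one of its targets, had 45.4, 47.1 and 42.9 CPM in controls and 116, 188 and 244 CPM in treated samples. IL6 was at 13.6 and 26.8 CPM in treated 3 and 4 but at 0.491 CPM in treated 2, close to control 2 at 0.427 CPM. It averaged under 10 reads in controls, so the filter fixed its direction and its call is no support. IL1RN, the antagonist of interleukin 1, had a log2 fold change of 3.69. The list as a whole averaged -0.20 log2 units against controls in treated 2, and 1.08 and 1.44 in treated 3 and 4. With all 6 samples edgeR called 0 of the 30. At an unadjusted P under 0.05 it had 10 higher and 3 lower, beside 957 and 466 of 4294 genes with a symbol. Without treated 2 it called 13 higher and 3 lower, beside 17.7% of genes with a symbol in both directions, and with any other sample left out it called at most 1 gene over all genes.

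On the lower side stood SOD2, the mitochondrial superoxide dismutase that NF-kB also induces, with 755, 1134 and 619 CPM in controls and 200, 114 and 366 CPM in treated samples. NFKB1, a subunit of NF-kB itself, differed little, with a log2 fold change of 0.54. Among cytokines, chemokines and their receptors, DESeq2 called 9 of 22 higher and none lower, with a median of 1.54. CCL4, a chemokine for monocytes and lymphocytes, stood at 6.06, 72.6 and 51.0 CPM in treated 2, 3 and 4 and at 1.70, 3.79 and 1.64 CPM in controls. Its neighbour CCL3 had the same order, at 1.75, 27.9 and 18.6 CPM. CCL5 was instead level across treated samples, at 6.22, 6.51 and 3.64 CPM against 0.974, 1.16 and 1.15 CPM in controls, and CCL26 had a log2 fold change of 2.90. Of 8 genes of the interferon response, DESeq2 called 2 higher, among them the transcription factor IRF1 at 3.40, and the median was 0.85, or 0.50 without treated 2.

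In the TGF-beta family, DESeq2 called 8 of 19 genes higher and 1 lower, with a median of 0.96. NODAL, an embryonic ligand of the family that is also made in the ovary, had 9.23, 16.5 and 17.3 CPM in treated samples and at most 0.656 CPM in controls. FST, follistatin, which binds activins, was at 33.0, 269 and 124.6 CPM in treated samples against 1.70, 8.55 and 10.8 CPM. The groups did not overlap for either gene, and treated 2 was the lowest treated sample for both. NODAL averaged under 10 reads in controls, so the filter fixed its direction and its call is no support. The receptor TGFBR1 was lower in all treated samples without a call, at 26.4, 174 and 203 CPM against 230, 629 and 360 CPM.

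For blood vessels and hypoxia, DESeq2 called 4 of 27 genes higher and 1 lower, with a median of 0.12 that ran from -0.047 without treated 3 to 0.35 without control 3. THBS1, a thrombospondin that restrains vessel growth and activates TGF-beta, was at 203, 1173 and 682 CPM in treated samples and at 44.7, 143 and 95.7 CPM in controls. Of 13 genes of cell death, DESeq2 called 1 higher and 1 lower, with a median of 0.40, or 0.22 without treated 2. The death receptor FAS was narrow in both groups, at 11.3, 11.4 and 11.5 CPM in treated samples and 5.42, 4.39 and 5.30 CPM in controls, with a log2 fold change of 1.18 and a call by DESeq2 alone. Its ligand FASLG, at 1.68 CPM or less in every sample, was not called.

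Of 49 matrix genes, DESeq2 called 14 higher and none lower, with a median of 0.996. These 28.6% are close to the 25.3% of all genes with a symbol called in both directions, of which 17.4% were higher. The groups did not overlap for 16, all higher, or 32.65%, beside 24.6% higher and 44.9% in both directions. COL1A2, a chain of type I collagen and the member with most reads, stood at 1203, 3245 and 2822 CPM in controls and at 6573, 5522 and 7076 CPM in treated samples. The protease ADAMTS4, an aggrecanase, had 36.9, 44.3 and 55.5 CPM in treated samples against 4.26, 6.35 and 11.0 CPM, and the stromal protease MMP11 a log2 fold change of 3.13. Control 1 was low in COL1A2, and the list median was 0.77 without it and 1.51 without control 3. Of 15 genes of Wnt and Notch signalling, DESeq2 called 5 higher, with a median of 0.83 that was 1.60 without control 3.

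All 55 tested genes of cytosolic ribosomal proteins had a positive log2 fold change, from 0.47 to 4.51. DESeq2 called 47 higher and none lower, and edgeR called 0. At an unadjusted P under 0.05 in edgeR 50 were higher, beside 957 of 4294 genes with a symbol. The groups did not overlap for 52, and the median was 1.46. RPS3 was at 471, 696 and 1005 CPM in controls and at 2745, 2180 and 2054 CPM in treated samples. RPS16 was at 110, 133 and 244 CPM in controls and at 924, 520 and 541 CPM in treated samples. The list summed to 18220, 26480 and 34130 CPM in controls and to 76950, 68760 and 59070 CPM in treated 2, 3 and 4, so treated 2 was highest and control 1 lowest. Without treated 2, edgeR called 5, all higher, or 9.09% against 17.7% of genes with a symbol in both directions. Reads of these genes can be split with near-identical copies elsewhere in the genome, so each single value is uncertain.

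For translation factors, DESeq2 called 8 of 19 higher and none lower, with a median of 0.75, among them EIF4B at 1.40. Of 29 cell cycle and replication genes, DESeq2 called 8 higher and none lower, with a median of 1.06. These 27.6% are close to the 25.3% of all genes with a symbol called in both directions, of which 17.4% were higher. With all 6 samples edgeR called none. Without treated 2 it called 3 of 30, or 10% beside 17.7% of genes with a symbol in both directions. MCM2 and MCM5, subunits of the replicative helicase, had log2 fold changes of 2.41 and 2.97, and the mitotic kinase AURKB one of 2.43, all without overlap between groups. Of 14 nuclear-coded respiratory chain genes, DESeq2 called 1 lower, NDUFS1 of complex I, at 94.5, 174 and 294 CPM against 548, 600 and 401 CPM, and the median was 0.59. This list was 1.07 log2 units above controls in treated 2 and 0.74 below in treated 3, and its median was -0.035 without treated 2 and 0.90 without treated 3. Of 13 heat shock and unfolded protein genes, DESeq2 called 3 higher, with a median of 0.30 that became -0.10 without treated 2 and 0.72 without treated 3.

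**Figure D4:**
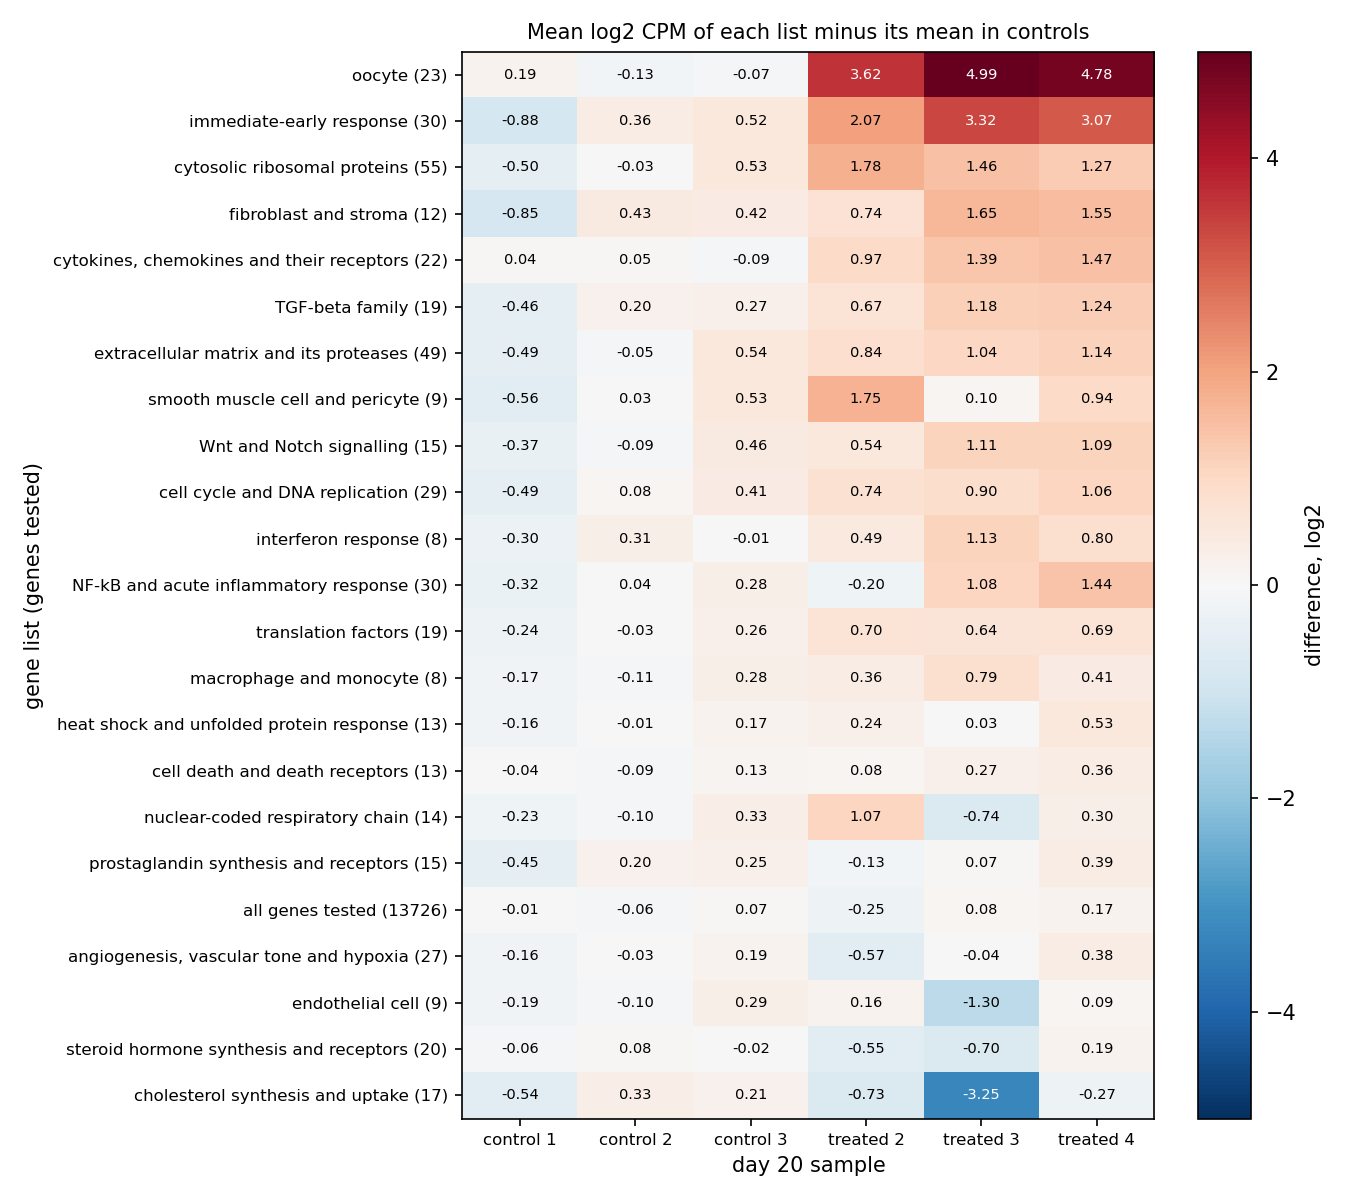
Rows are gene lists with at least 8 tested genes (number tested in brackets) and all genes tested, and columns are the 6 day 20 samples. Each cell gives the list's mean log2 CPM minus its mean in controls, red above and blue below. Oocyte and immediate-early genes are the deepest red in all 3 treated samples, and other lists, such as ribosomal proteins and matrix, are red there too. In the oocyte row 18 genes entered through the treated group alone, so the filter fixed their direction. The cholesterol list is deepest blue in treated 3, at -3.25.

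Markers of other cells of the tissue differed from list to list, and edgeR called none of them with all 6 samples. Fibroblast and stroma markers were called higher by DESeq2 in 5 of 12, or 41.7%, with a median of 1.49. Of genes with a symbol 25.3% were called in both directions and 17.4% higher. TCF21, a stromal transcription factor, was at 24.5, 42.0 and 22.6 CPM in treated samples against 1.22, 2.32 and 5.36 CPM, and FBLN1, fibulin 1, had a log2 fold change of 2.33. COL1A2 was the list's gene with most reads, and the 12 genes summed to 3039, 7599 and 6989 CPM in controls and 12440, 11700 and 15190 CPM in treated samples. For smooth muscle and pericytes DESeq2 called 4 of 9 higher and 1 lower, or 55.6%, with a median of 1.29 (0.82 without treated 2). MYL9 had most reads, and the list summed to 644, 710 and 941 CPM in controls and 1997, 805 and 1063 CPM in treated samples. TAGLN, an actin-binding protein of smooth muscle, was at 343, 95.7 and 156 CPM against 17.6, 43.5 and 75.7 CPM, while RGS5, a marker of pericytes, was the lower one, at 38.6, 36.5 and 122 CPM against 252, 288 and 246 CPM. The part of these cell types in the results above was not tested.

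Of 9 endothelial markers none was called by DESeq2 or edgeR, none was separate between groups, 0 had an unadjusted P under 0.05, and the median was 0.052, with -0.57 without treated 2. KDR, a receptor of VEGF with most reads on that list, was at 89.7 CPM in treated 3 and at 372 to 580 CPM in all other samples. Of 3 luteal cell markers tested from 10 fixed, PRLR and PTGFR were called lower by DESeq2, with a median of -1.34, and their sum with LHCGR was 2976, 3402 and 2346 CPM in controls and 335, 317 and 1191 CPM in treated samples. The other fixed markers, among them STAR, CYP11A1 and HSD3B1, could not be matched to a symbol. They were not tested, so the 3 receptors do not describe luteal cells as a whole. Of 6 granulosa and follicle markers, DESeq2 called 2 higher and 1 lower, with FSHR with most reads and a median of 0.56, from 0.24 without treated 4 to 1.28 without control 3. The direction of HSD17B1, which was called higher there, was fixed by the filter.

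For macrophages and monocytes DESeq2 called 1 of 8 markers higher, with a median of 0.30, or 0.45 without treated 2, and LYZ, the member with most reads, overlapped between groups. Markers of rarer cells could be matched in small numbers only. DESeq2 called 2 of 3 for T and natural killer cells, 1 of 2 for B and plasma cells, 2 of 4 for mast cells, 1 of 2 for epithelium and mesothelium and 1 of 1 for red blood cells, all higher, and 0 of 2 for adipocytes and 0 of 1 for neutrophils and eosinophils, where edgeR also called none. Of the members called, GZMB, BLK, FCER1A, MS4A2 and ALAS2 averaged under 10 reads in controls. The filter thus fixed their direction, and these counts are no support. The summed level of the 3 T and natural killer cell markers was 1.52, 3.60 and 2.35 CPM in controls and 8.19, 8.96 and 7.06 CPM in treated samples.

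Single genes show how the treated samples parted. In treated 2, KLK1, a tissue kallikrein, was at 3594 CPM against 33.1 and 165 CPM in treated 3 and 4, and LCN2, an iron-binding lipocalin, at 35.5 CPM against 0.0509 and 0.589 CPM. Controls held 198 to 472 CPM of KLK1. Far lower in treated 2 were SPP1, osteopontin, at 16.7 CPM against 575 and 464 CPM, OMD, a matrix proteoglycan, at 1.75 CPM against 64.9 and 71.4 CPM, and RGS1, a regulator of leukocyte signalling, at 1.42 CPM against 79.0 and 54.8 CPM.

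Treated 3 held far less of some transcripts than all other day 20 samples did. KLK2, a kallikrein, was at 16.9 CPM in treated 3, 11400 CPM in treated 2 and 6194 CPM in treated 4, with controls from 3921 to 6587 CPM. ALB, albumin, was at 4.83 CPM in treated 3 against 2688 and 922 CPM in the others and 2484 to 3871 CPM in controls. HAO2, a peroxisomal oxidase, was at 0.814 CPM against 100.2 and 120 CPM. Treated 3 was in turn highest for PRG4, a lubricant proteoglycan, at 52.2 CPM against 0.273 and 1.07 CPM, for CHI3L1, a chitinase-like protein, at 35.4 CPM against 0.601 and 1.55 CPM, and for FGF9, a growth factor, at 50.5 CPM against 2.18 and 4.71 CPM.

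The genes named here lay nearer to the controls in treated 4 than in both other treated samples. For the NF-kB and cytokine lists treated 4 was instead farthest from controls, at 1.44 and 1.47 log2 units. KIAA1524, an inhibitor of the phosphatase PP2A, was at 337 CPM there against 30.5 and 31.4 CPM, with controls from 474 to 628 CPM, and CP, ceruloplasmin, at 42.4 CPM against 8.46 and 6.56 CPM, with controls from 75.0 to 188 CPM. PENK, which encodes enkephalins, was at 3.00 CPM in treated 4, 55.4 CPM in treated 2 and 10.3 CPM in treated 3, all above the controls at 0.875 CPM or less. It averaged under 10 reads in controls, so the filter fixed its direction against them. IGFBP3, a carrier of insulin-like growth factors, was at 7.38 CPM against 21.4 and 28.6 CPM.

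**Figure D5:**
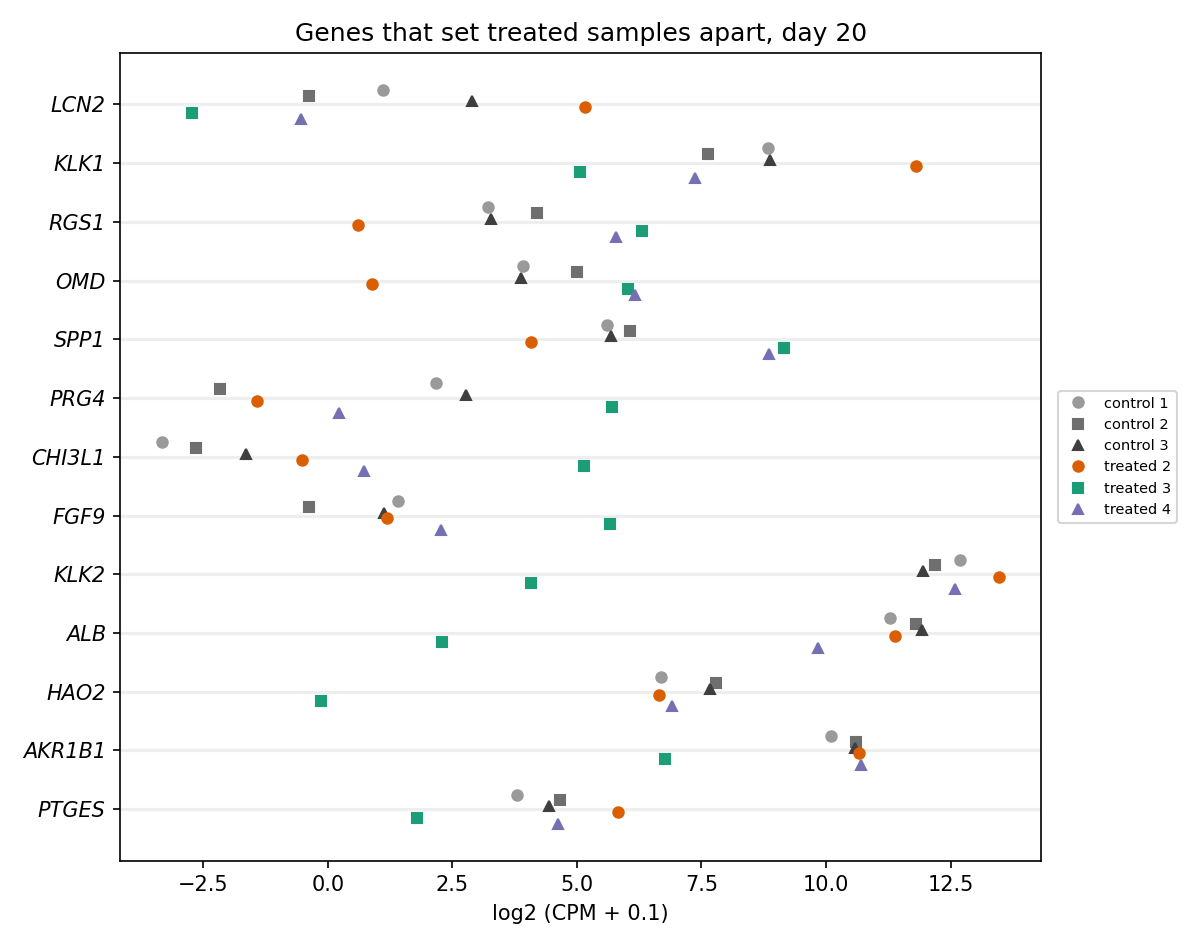
Genes that set treated samples apart, with log2 (CPM + 0.1) of each day 20 sample on the horizontal axis and symbols as in the plot of genes that rose. Treated 3 is far left for KLK2, ALB, HAO2 and AKR1B1, and treated 2 is far right for LCN2 and KLK1 and left for RGS1, OMD and SPP1.

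The genes that parted the treated samples also differed in the length of genome they span. Among genes with a symbol, those at least 1 log2 unit below both others in treated 2 had a median span, introns included, of 65.6 kb, and those as far above a median of 14.3 kb. In treated 3 the order was opposite, with 26.04 kb below and 65.6 kb above, and in treated 4 it was that of treated 3, with 21.3 kb below and 47.4 kb above. All tested genes with a symbol had a median of 33.6 kb, from the RefSeq annotation of the assembly UU_Cfam_GSD_1.0, in which 94.9% of them were found. The part of gene length or RNA quality in the spread of the treated samples was not tested.

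Whether the effect of firocoxib at day 20 differed from that at other days was tested as an interaction over all 26 samples. In edgeR's quasi-likelihood test 0 of 14171 genes passed both thresholds against day 30, day 10 or day 5, with 1931, 1772 and 866 genes at an unadjusted P under 0.05. DESeq2 called 354, 589 and 53 genes in these comparisons. Against day 10, edgeR called 52 genes without control 3 and 168 without treated 4, and against day 30 it called 1 without treated 4. In that fit the log2 fold change of ZP3 was 10.49 at day 20, and 0.36, -1.29 and 3.83 at days 5, 10 and 30. For APOB it was -4.14 at day 20, and -1.30, -0.66 and -0.19 at days 5, 10 and 30.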

How the data were processed

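RNA of corpora lutea was sequenced by the authors after poly-A selection, and 26 samples remained once outliers had been set aside. STAR, featureCounts and CanFam3.1 are named in the submitters' processing notes. Versions and the strand setting are not given in the sources used here. The deposited files give raw counts per gene for 19856 genes in each sample. The authors' own fold changes and p-values were not used.

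The 6 day 20 samples were fitted with edgeR 4.0.16 (quasi-likelihood test, TMM factors, R 4.3.3) after genes averaging under 10 reads in both groups were left out. A gene was called at P under 0.01 and a Benjamini-Hochberg FDR under 0.1, and standard errors were derived from the test statistic. DESeq2 1.42.0, limma 3.58.1 and other settings were alternatives, and the fits were tested on simulated data. The replicates are different bitches. Total counts limit precision for genes of few reads. Symbols were available for 4355 of 4888 identifiers on the study's gene lists, and 10 share a symbol. Named genes were the called genes, the 10 of smallest P in each direction beyond them among genes with a symbol, at least 5 CPM in the higher group and no overlap, leading members of 31 lists, and genes farthest apart between treated samples. Samples, lists and rules were chosen with earlier results of these data known. Promoter sequences and positions in CanFam3.1 were not analysed here. A few items withheld for evaluation are not reported here.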

Additional observations from a re-analysis of the deposited data

Results flagged for a closer look

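The 118 named genes were searched for opposite directions on different days. For a pair of them every treated sample lay beyond all controls at day 20, and beyond them in the opposite direction at another day. Some of the genes searched had been named because their groups did not overlap at day 20. The share of all genes with such a reversal was not counted. Whether the pair exceeds what chance would give was therefore not tested, and it is given as a description only. NFKB1 had a log2 ratio of mean CPM, treated over control, of 0.51 at day 20 and of -0.45 at day 30, where treated samples ran from 24.6 to 40.3 CPM and controls from 41.2 to 51.4 CPM. IGFBP3 had a log2 ratio of 3.37 at day 20 and of -1.45 at day 10, where treated samples ran from 4.17 to 5.72 CPM and controls from 7.21 to 25.0 CPM. In edgeR's quasi-likelihood test of the difference between days, NFKB1 had an FDR of 0.266 and IGFBP3 one of 0.133, so neither passed.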

How the results depend on the processing

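The count of genes called at day 20, 14 in edgeR, moved with most settings. It was 95 with RLE factors, 99 with limma voom, 109 without a filter, 129 with filterByExpr, 1479 with DESeq2, 1484 with DESeq2 without its cutoffs, 1559 with all 26 samples, 2150 with voom and sample weights, and 1 at an FDR under 0.05. Each of these held all 14 genes except the last. Leaving out each sample in turn gave 0 to 1016 calls. Interaction calls, 0 in edgeR, were 354, 589 and 53 with DESeq2 against days 30, 10 and 5, and 0 to 1, 0 to 168 and 0 to 0 with each sample left out. The difference in correlation ran from 0.0395 to 0.248 with each sample left out and kept its direction in every setting run. Median log2 fold changes of all genes ran from -0.07 with the block to 0.14 without control 3. Replicate numbers are shared by 2 pairs, which did not deviate together (r = -0.399 and -0.398). Deviations from a mean of 3 samples constrain one another, so whether the numbers mark anything shared is not settled. The fit with the replicate block called 10 genes, 6 of them among the 14.

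Directions turned for a few named genes that edgeR did not call. With the replicate block the log2 fold change was -0.75 for PTGES, -0.66 for SLCO2A1, -1.64 for PTGS2, -0.0042 for LCN2, -0.27 for RGS1, -0.98 for OMD and -3.27 for KLK2. With each sample left out in turn it ran from -0.58 to 0.998 for PTGES and from -0.61 to 0.97 for SLCO2A1, both lowest without treated 2, and from -0.52 to 1.78 for PTGS2, lowest without treated 4. The range was -0.71 to 0.23 for AKR1B1, -0.78 to 0.71 for LHCGR, -0.63 to 0.27 for LYZ, -3.39 to 3.19 for LCN2, -1.95 to 2.32 for KLK1, -2.47 to 2.98 for PRG4 and -0.75 to 0.80 for KLK2. LHCGR was at -0.030 with RLE factors, -0.031 with DESeq2 and -0.018 with all 26 samples. The cause was not tested. Counts of list members called without treated 2 were added after the data were seen. Genes of few control reads are limited by depth.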
